A study of Arabidopsis thaliana with 18 samples.

Results

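The line effect is the difference in transcript level between a transgenic Arabidopsis thaliana line that makes the H3K27 demethylase REF6 in the vegetative cell of pollen (V-Mt) and a reporter line (WT). Here the line effect in vegetative nuclei (VC) is set against the line effect in sperm nuclei (SC), as (V-Mt VC minus WT VC) minus (V-Mt SC minus WT SC). Values are in FPKM, a fragment count divided by transcript length and by the depth of the library, taken as log2(FPKM + 1). The members are the 12 pollen nuclei libraries out of 18 in the study, 3 in each of 4 groups, and the 19733 of 28424 table entries at 1 FPKM or more in at least 3 of the 12 libraries.

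All 4 groups are sorted nuclei from mature pollen. V-Mt VC and V-Mt SC came from pLat52:REF6-GFP; pHTR10:HTR10-RFP plants, WT VC and WT SC from pACTIN11:H2B-GFP; pHTR10:HTR10-RFP plants, all in the Col-0 ecotype. The LAT52 promoter drives REF6-GFP in the vegetative cell, and the HTR10 promoter drives a sperm histone H3 fused to RFP. In the labels the number of this histone climbs from HTR10 to HTR15 over the 6 V-Mt pollen libraries, while WT libraries all carry HTR10. GFP-positive nuclei were taken as vegetative and RFP-positive nuclei as sperm. The GFP protein on which vegetative nuclei were gated differs between the lines, so that line and marker cannot be told apart in the vegetative line effect. Whether the 3 libraries of a group came from separate plants is not given in the sources used here, so p-values measure the spread between these libraries only. In bulk libraries, fewer nuclei of a type and less RNA per nucleus cannot be told apart.

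A pollen grain holds a large vegetative cell, which builds the pollen tube, and a pair of sperm cells inside it, which fertilise the egg and the central cell. Polycomb complex PRC2 places trimethylation on lysine 27 of histone H3 (H3K27me3), a mark of silenced genes, and REF6 removes it. REF6 binds DNA through zinc fingers that read a short word, CTCTG followed by a pyrimidine, T and a pyrimidine. Sperm chromatin is known to carry a particular histone H3, MGH3 (HTR10), and to lack much of this mark.

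REF6 itself checked the labels. It stood at 1303, 2248 and 3001 FPKM in V-Mt VC, against 1.1, 0.42 and 0.48 FPKM in WT VC. In sperm nuclei it stood at 28.9, 58.4 and 436 FPKM in V-Mt SC, against 24.6, 23.2 and 10.8 FPKM in WT SC. The vegetative groups were far apart, while among V-Mt SC libraries replicate 3 alone was above 100 FPKM. The line effect of REF6 was larger in VC than in SC by 8.05 ± 1.15 log2 units (SE; limma with Benjamini-Hochberg adjustment, adjusted p = 0.000124). MGH3, the sperm histone that both lines also carry as a fusion, had line effects of 0.85 ± 0.27 in VC and 0.89 ± 0.27 in SC, a difference of -0.04 ± 0.39 (limma, adjusted p = 0.94), which median-ratio scaling moved to -1.64.

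The labelled nuclei were checked against markers. All 8 sperm markers (MGH3, GEX2, GCS1, DAZ1, DAZ3, DUO1, DAN1 and DMP9) were higher in SC than in VC without overlap, in V-Mt and in WT alike. Of 8 vegetative markers, 7 were higher in WT VC than in WT SC without overlap (AGP6 was not), but 0 of 8 were so in V-Mt VC against V-Mt SC. BUPS1, LRX8 and STP11, which act in pollen tube growth, were instead lower in V-Mt VC than in V-Mt SC without overlap: LRX8 averaged 26.7 FPKM in V-Mt VC and 46.3 FPKM in V-Mt SC, against 1126 FPKM in WT VC and 158 FPKM in WT SC. The V-Mt nuclei labelled vegetative thus lacked the vegetative marker pattern.

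Libraries differed in breadth. Between 18735 and 18932 entries reached 1 FPKM in V-Mt VC, against 8093 to 8386 in WT VC, and between 9429 and 11214 did in V-Mt SC, against 11951 to 12742 in WT SC. The tables hold no counts; steps between low values pointed to about 9500000 to 24400000 fragments per pollen library. Replicates 1 and 2 of WT SC stood apart from replicate 3: organelle genes took 0.0432% and 0.0731% of their FPKM, against 0.000737% in replicate 3, and heat shock genes took 0.23% and 0.2%, against 0.0738%. V-Mt SC libraries had organelle shares of 0.00118%, 0.000982% and 0.0161% and heat shock shares of 0.0894%, 0.0729% and 0.119%. The count of opposite genes, and values of those described as opposite with VC higher, are also given without replicates 1 and 2 of WT SC.

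The line effect was larger (more positive) in VC than in SC for 11935 of 19733 genes (60.5%) and smaller for 1416 (7.18%), by limma with Benjamini-Hochberg adjustment at 0.05. The median difference over all tested genes was 2.24 log2 units, from a median line effect of 1.92 in VC and -0.19 in SC. By itself the line effect was called higher for 12334 genes (62.5%) and lower for 2122 (10.8%) in VC, but higher for 232 (1.18%) and lower for 776 (3.93%) in SC. Counts in VC kept within 1.5 times their size without any 1 library, while counts in SC did not. Without replicate 1, 2 or 3 of V-Mt VC, 95, 90 and 110 genes were higher in SC and 252, 232 and 269 lower, and without replicate 2 or 3 of WT VC 106 and 104 were higher and 284 and 280 lower. Without replicate 1 of WT SC 128 were higher and 389 lower, and without its replicate 3, 625 and 2671; without replicate 1 of WT VC 514 and without replicate 2 of V-Mt SC 507 were lower.

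Scaling moved the balance of the difference: 89.4% of called genes were higher with FPKM as deposited, 78.9% after median-ratio scaling (median difference 1.57) and 56.8% after quantile normalization (median difference 0.23). The values of single genes below stand on the deposited scale and are read beside these shifts.

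Genes called for the difference were sorted by their line effect in each kind of nucleus. A line effect was opposite where both effects were called with opposite signs. It was confined to one kind of nucleus where it was called there at 1 log2 unit or more and the 95% interval of the effect in the other kind lay wholly within -1 to 1. By these rules 397 genes (2.01%) were higher in V-Mt than in WT in VC and lower in SC, and 6 genes (0.0304%) were the reverse. The effect was confined to VC in 3962 genes that were higher (20.1%) and 245 that were lower (1.24%), and confined to SC in 14 that were higher (0.0709%) and 31 that were lower (0.157%). Both effects had the same sign in 99 genes higher in both (0.502%) and 70 lower in both (0.355%). The remaining 8527 (43.2%) met none of these rules; in 7516 of them the VC effect was called and the SC effect was not, with a median standard error of the SC effect of 0.528 over the 8527, against 0.199 in the genes confined to VC and higher.

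**Figure D1:**
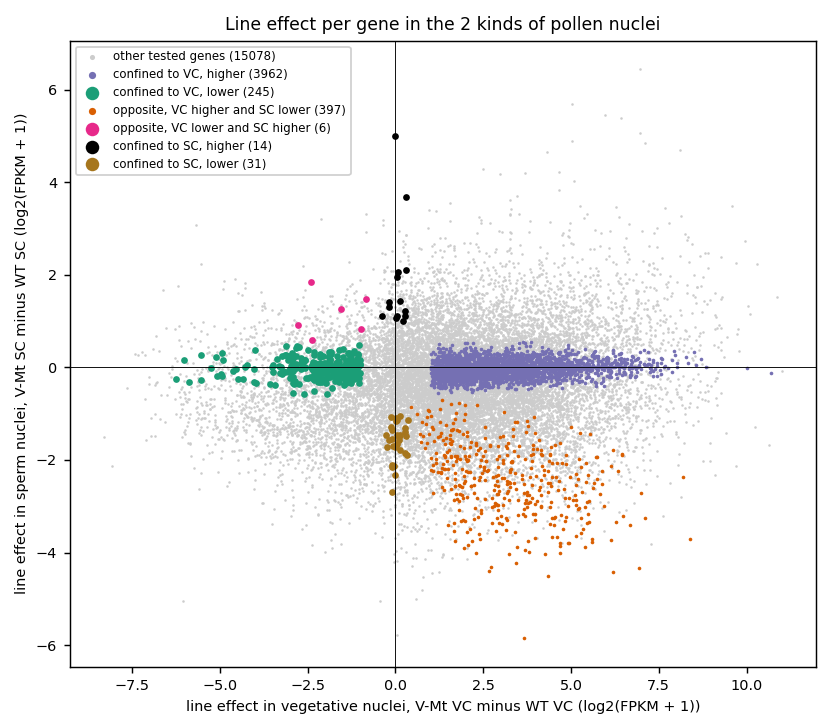
Line effect of each tested gene in sperm nuclei (vertical axis) against that in vegetative nuclei (horizontal axis), both as V-Mt minus WT on log2(FPKM + 1), coloured by pattern. Most genes lie to the right of 0, with 3962 confined to VC and higher in purple and 397 with opposite effects in orange; coloured genes were placed by these same values.

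Opposite effects with VC higher and SC lower joined genes of unrelated roles: the small RNA binding proteins AGO2 and AGO4, the jasmonate repressor JAZ8, the calmodulin-like TCH2, the tetraspanin TET8, the kinesin ARK2 and the H3K27 demethylase JMJ30. They were typically high in V-Mt VC, less so in WT SC, and near 0 in the other groups. The median over the 397 genes was 20.9, 20.5 and 19.2 FPKM in V-Mt VC, against 0.12, 0.36 and 0.35 FPKM in WT VC. In sperm nuclei it was 0.39, 0.18 and 0.09 FPKM in V-Mt SC, against 10.5, 12.6 and 3.27 FPKM in WT SC. Replicate 3 was the lowest WT SC library in 344 of the 397 genes, yet it lay above all V-Mt SC libraries in 396. The 2 groups of a nucleus kind did not overlap in either kind in 394 of the 397; that background was 13.9% of all tested genes, but the rule used the same contrasts.

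EDA12, named for an arrest of the embryo sac, came first when the opposite genes were ranked by the smaller of their effects. It lies on chromosome 2, 15104716 to 15106119, plus strand (coordinates are TAIR10.1). It stood at 72.2, 84.0 and 66.6 FPKM in V-Mt VC, against 0.07, 0 and 0 FPKM in WT VC, and at 0.28, 0.56 and 0.69 FPKM in V-Mt SC, against 110, 79.0 and 2.79 FPKM in WT SC. The lines did not overlap in either kind of nucleus, but replicate 3 of WT SC was close to V-Mt SC. The line effect was 6.20 ± 1.0 in VC and -4.43 ± 1.0 in SC (limma, adjusted p = 0.000215 and 0.0358), a difference of 10.62 ± 1.41 (adjusted p = 7.33e-05).

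JAZ8 represses jasmonate responses (chromosome 1, 10596352 to 10597341, plus strand). It stood at 21.6, 22.1 and 20.5 FPKM in V-Mt VC, against 0.35, 0 and 0 FPKM in WT VC, and at 0, 0.22 and 0.98 FPKM in V-Mt SC, against 77.5, 97.6 and 2.68 FPKM in WT SC. Again the high sperm libraries were replicates 1 and 2 of WT. Its line effect differed between nuclei by 8.85 ± 1.42 (limma, adjusted p = 0.000278). TCH2, a touch-induced calmodulin-like protein, stood at 66.0, 60.5 and 50.8 FPKM in V-Mt VC, against 0.87, 0 and 0.53 FPKM in WT VC, and at 0.52, 1.70 and 1.01 FPKM in V-Mt SC, against 60.5, 50.2 and 7.34 FPKM in WT SC. Its difference was 9.27 ± 0.94 (limma, adjusted p = 9.79e-06); it overlaps AT5G37760 in the annotation, and no source used here says that counting used strand. AGO2, an Argonaute of antiviral defence, stood at 25.5, 27.1 and 21.9 FPKM in V-Mt VC, against a listed 0 in all WT VC libraries. It stood at 0.17, 0.06 and 0.08 FPKM in V-Mt SC, against 30.5, 36.7 and 2.38 FPKM in WT SC (limma, adjusted p of the difference = 4.17e-05).

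AT5G07960 (asterix-like), TET8, PHOS32 and ARK2 completed the 8 with the largest smaller effect. Over the 8 genes, V-Mt VC libraries held 16.5 to 84.0 FPKM, against 0 to 1.42 FPKM in WT VC, and V-Mt SC libraries held 0 to 2.21 FPKM, against 18.9 to 110 FPKM in replicates 1 and 2 of WT SC and 1.60 to 7.34 FPKM in replicate 3. In all 8 genes V-Mt VC and WT SC were the high groups, while which of them was higher varied. Their differences of line effect were 8.31 for AT5G07960, 8.71 for TET8, 7.80 for PHOS32 and 8.49 for ARK2 (limma, adjusted p 3.71e-05, 0.000138, 0.000127 and 8.44e-05). PHOS32 and ARK2 overlap neighbouring genes.

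The count of opposite effects moved with libraries of both kinds of nuclei. Leaving out replicate 3 of WT SC raised the count from 397 to 1669, of which 394 were shared. Leaving out 1 WT SC library gave 220 (replicate 1) or 306 (replicate 2), 1 WT VC library 224, 126 or 124, 1 V-Mt VC library 113, 106 or 120 and 1 V-Mt SC library 381, 231 or 284, in the order of the replicate numbers. Without both replicates 1 and 2 of WT SC, an alternative chosen after seeing the data that leaves 1 WT SC library, 179 genes were called, 68 of them among the 397. The SC effect was then -1.34 for EDA12, -1.46 for JAZ8, -1.45 for TET8 and -2.05 for TCH2, no longer called (limma, adjusted p 0.0761, 0.13, 0.276 and 0.0757). It stayed called for AT5G07960, PHOS32 and ARK2 at -1.98, -1.85 and -1.36, and for AGO2 (limma, adjusted p 0.0354, 0.0343, 0.0444 and 0.0282). Library weights left 13. AT5G07960 kept the pattern in 21 of 22 refits, TCH2 in 20, AGO2 in 16 and PHOS32 in 15. ARK2 kept it in 10, JAZ8 and TET8 in 6 each and EDA12 in 5. The difference itself stayed called in all 22 for each of the 8. Under both other scalings 49 of the 397 kept the pattern and 296 the call and sign of the difference. The part of the organelle and heat shock shares of WT SC in these values was not tested.

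**Figure D2:**
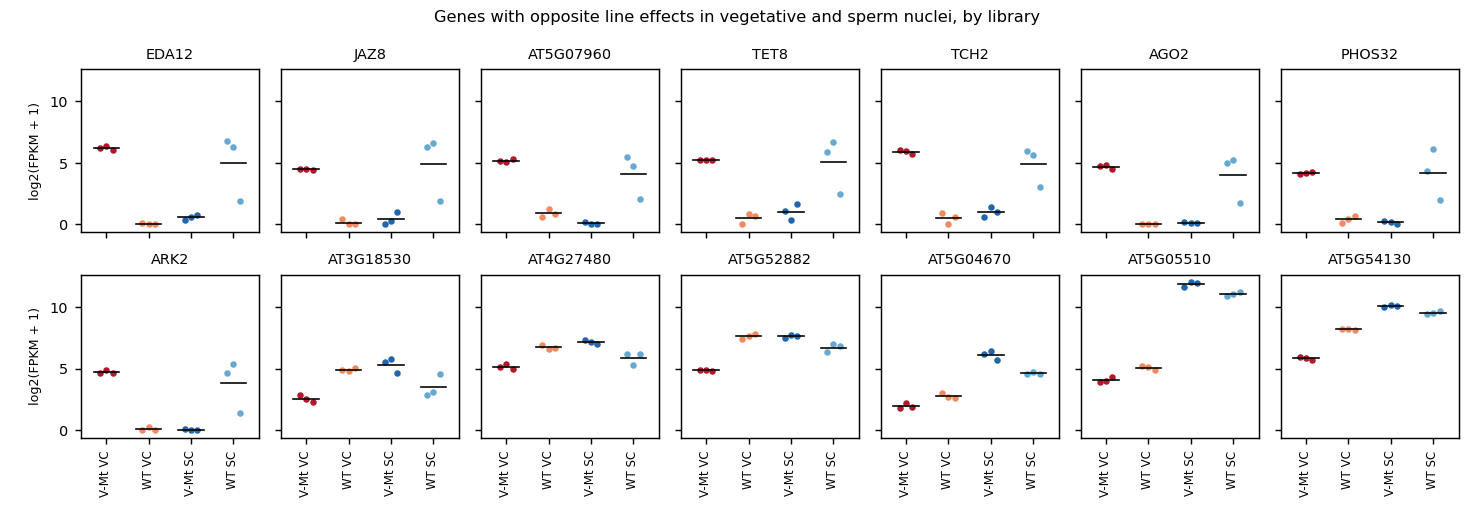
Level in each library, as log2(FPKM + 1), of the 8 named genes with a higher level in V-Mt VC and a lower one in V-Mt SC than in WT (EDA12 to ARK2) and of all 6 genes with the reverse (AT3G18530 to AT5G54130); points are libraries in the order of replicates 1 to 3 and bars are group means. In the first 8 genes replicate 3 of WT SC lies below replicates 1 and 2; in the last 6 every V-Mt SC library lies above every WT SC library.

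The 6 reverse genes were expressed in both kinds of nuclei and changed less. AT5G54130, a calcium-binding endonuclease/exonuclease/phosphatase family gene (chromosome 5, 21962570 to 21965623, plus strand), had the smallest sperm effect. It stood at 60.8, 57.3 and 50.6 FPKM in V-Mt VC, against 307, 293 and 290 FPKM in WT VC, and at 1056, 1184 and 1113 FPKM in V-Mt SC, against 683, 731 and 819 FPKM in WT SC. Neither pair of groups overlapped, and the replicates were close. The line effect was -2.38 ± 0.14 in VC and 0.59 ± 0.14 in SC (limma, adjusted p = 9.63e-08 and 0.0445), a difference of -2.97 ± 0.20 (adjusted p = 6.01e-07). AT5G52882, a P-loop nucleoside triphosphate hydrolase, stood at 29.5, 28.6 and 27.7 FPKM in V-Mt VC, against 173, 207 and 227 FPKM in WT VC, and at 182, 215 and 200 FPKM in V-Mt SC, against 79.6, 128 and 112 FPKM in WT SC. Its difference was -3.69 ± 0.30 (limma, adjusted p = 2.26e-06), with no overlap in either kind of nucleus. AT3G18530, an ARM repeat gene that overlaps AT3G18535, stood at 6.27, 4.69 and 3.84 FPKM in V-Mt VC, against 29.0, 27.4 and 32.9 FPKM in WT VC. In sperm it stood at 45.8, 53.9 and 24.7 FPKM in V-Mt SC, against 6.13, 7.65 and 22.5 FPKM in WT SC, so that the closest libraries nearly met; the difference was -4.23 ± 0.65 (limma, adjusted p = 0.0002).

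AT5G05510, which carries the Mad3/BUB1 homology region of spindle checkpoint proteins, was mainly a sperm transcript. It stood at 13.9, 15.4 and 19.0 FPKM in V-Mt VC, against 36.7, 33.4 and 28.2 FPKM in WT VC, and at 3209, 4182 and 4130 FPKM in V-Mt SC, against 1886, 2171 and 2431 FPKM in WT SC. Its effects were -0.99 ± 0.19 and 0.83 ± 0.19 (limma, adjusted p = 0.000869 and 0.0406). AT5G04670, annotated as an enhancer of polycomb-like factor and overlapping 2 other genes, stood at 2.48, 3.67 and 2.63 FPKM in V-Mt VC, against 7.15, 5.49 and 5.29 FPKM in WT VC, and at 72.4, 85.4 and 51.9 FPKM in V-Mt SC, against 23.3, 26.1 and 22.8 FPKM in WT SC (difference -2.31 ± 0.39; limma, adjusted p = 0.000402). AT4G27480, a core-2/I-branching glycosyltransferase, had a difference of -2.82 ± 0.38 (limma, adjusted p = 7.59e-05). All 6 differences kept call and sign under both other scalings, while the pattern held under both in 3 of the 6. AT5G04670 kept the pattern in 17 of 22 refits, AT4G27480 in 11 and AT5G52882 in 9. AT5G05510 kept it in 7, AT3G18530 in 6 and AT5G54130 in 3. The count of 6 became 81 without replicate 3 of WT SC, 14 without replicate 3 of V-Mt SC and 0 to 2 without replicate 1, 2 or 3 of V-Mt VC, replicate 2 of V-Mt SC, replicate 2 or 3 of WT VC or replicate 1 or 2 of WT SC.

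Effects confined to VC and higher covered 3962 genes, but most of them were nearly silent in sperm nuclei of both lines. In 3524 (88.9%) both SC means were under 1 FPKM, against 26.9% of all tested genes, and in 424 (10.7%) both were at 5 FPKM or more. WT VC libraries were all listed at 0 in 2072 of them, and 1378 had no AGI locus. The median over the pattern was 6.68, 6.79 and 6.64 FPKM in V-Mt VC and 0 in each library of the other groups. In such genes the rule has little sperm signal to read. Under both other scalings 1024 of the 3962 kept the pattern and 2052 the call and sign of the difference.

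Genes with sperm signal give the rule more to read, here on the deposited scale. FIS2, the PRC2 subunit of the central cell (chromosome 2, 14992565 to 14996756, plus strand), stood at 1045, 879 and 894 FPKM in V-Mt VC, against 1.28, 2.33 and 2.20 FPKM in WT VC. In sperm nuclei it stood at 318, 279 and 317 FPKM in V-Mt SC, against 214, 277 and 388 FPKM in WT SC. The vegetative groups were far apart and the sperm groups overlapped fully. Its line effect was 8.34 ± 0.25 in VC and 0.10 ± 0.25 in SC (limma, adjusted p = 6.94e-09 and 0.905), a difference of 8.24 ± 0.35 (adjusted p = 2.38e-07), and it kept the pattern in 20 of 22 refits. It overlaps AT2G35680.

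TIF3B1, a subunit of translation initiation factor eIF3, stood at 392, 450 and 423 FPKM in V-Mt VC, against 0.24, 1.94 and 1.36 FPKM in WT VC, and at 69.1, 81.0 and 82.3 FPKM in V-Mt SC, against 76.5, 100 and 55.4 FPKM in WT SC. Its difference was 7.65 ± 0.47 (limma, adjusted p = 3.48e-07). AT2G35750, an uncharacterized gene near FIS2 on chromosome 2, behaved likewise, at 848, 694 and 822 FPKM in V-Mt VC, against 1.51, 1.60 and 1.56 FPKM in WT VC, and at 120, 123 and 108 FPKM in V-Mt SC, against 116, 60.5 and 141 FPKM in WT SC (difference 8.04 ± 0.41; limma, adjusted p = 2.38e-07). In both genes the sperm groups overlapped. TIF3B1 and AT2G35750 each kept the pattern in 17 of 22 refits. Both lost it under median-ratio scaling, and AT2G35750 also under quantile normalization.

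STV1, a ribosomal protein of the large subunit, had the largest effect of the pattern. It stood at 1782, 1935 and 1939 FPKM in V-Mt VC, against 0, 0.09 and 0.33 FPKM in WT VC, and at 7.29, 11.6 and 24.1 FPKM in V-Mt SC, against 18.1, 15.4 and 9.96 FPKM in WT SC. The difference was 10.83 ± 0.55 (limma, adjusted p = 2.38e-07), but the pattern held in 4 of 22 refits; ribosomal protein genes have near-identical copies among which reads may be split. AT1G36240, another ribosomal protein gene, had a listed 0 in every library outside V-Mt VC, where it stood at 210, 230 and 163 FPKM. In WT VC libraries AT2G07640 was always listed at 0, while it stood at 1066, 1121 and 942 FPKM in V-Mt VC, with no sperm library above 0.45 FPKM.

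Effects confined to VC and lower mostly marked genes also expressed in sperm nuclei: 181 of the 245 (73.9%) had SC means of at least 5 FPKM in both lines, against 33.9% of all tested genes. In 61 (24.9%) both SC means were under 1 FPKM, against 26.9% of all tested genes. The median over the 245 was 13.6, 11.3 and 13.3 FPKM in V-Mt VC, against 70.6, 78.7 and 79.3 FPKM in WT VC. It was 87.0, 83.8 and 70.9 FPKM in V-Mt SC, against 72.2, 78.8 and 80.0 FPKM in WT SC, the level of WT VC.

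RKF1, a receptor-like kinase first described in flowers, stood at 3.15, 2.3 and 1.70 FPKM in V-Mt VC, against 204, 269 and 285 FPKM in WT VC. It stood at 76.7, 74.3 and 50.8 FPKM in V-Mt SC, against 52.5, 100 and 91.9 FPKM in WT SC. Only the vegetative groups were apart, and the difference was -5.99 ± 0.44 (limma, adjusted p = 1.03e-06). GDPD3, a glycerophosphodiester phosphodiesterase, stood at 33.5, 28.1 and 25.7 FPKM in V-Mt VC, against 1772, 1686 and 1854 FPKM in WT VC, and at 177, 197 and 79.6 FPKM in V-Mt SC, against 156, 166 and 205 FPKM in WT SC (difference -5.58 ± 0.43; limma, adjusted p = 1.45e-06). APR1, an APS reductase of sulfur assimilation, stood at 9.55, 6.22 and 5.41 FPKM in V-Mt VC, against 332, 383 and 372 FPKM in WT VC, and at 105, 122 and 101 FPKM in V-Mt SC, against 61.7, 113 and 106 FPKM in WT SC (difference -5.78 ± 0.40, limma, adjusted p = 6.05e-07). In all 3 genes WT VC was the highest group and V-Mt VC the lowest.

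AT1G79915 (a methyltransferase family gene), AT3G06150 and AT5G07170 (a microtubule associated protein) completed the list of 6, with differences of -6.16, -5.27 and -5.24 (limma, adjusted p 2.37e-06, 5.12e-07 and 1.36e-05). Of the 6, AT3G06150 kept the pattern in 20 of 22 refits, APR1 in 15, RKF1 in 14, AT5G07170 in 12, GDPD3 in 9 and AT1G79915 in 8. Members of the gene lists below that took this pattern were the replication licensing factor CDC6, the D-type cyclin CYCD7;1, the pectin methylesterase PPME1, AT5G64640, AGL18, the GTPase ROP1 and the anther regulators TDF1 and MYB80. All 245 genes kept the call and sign of the difference under both other scalings, and 95 kept the pattern.

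**Figure D3:**
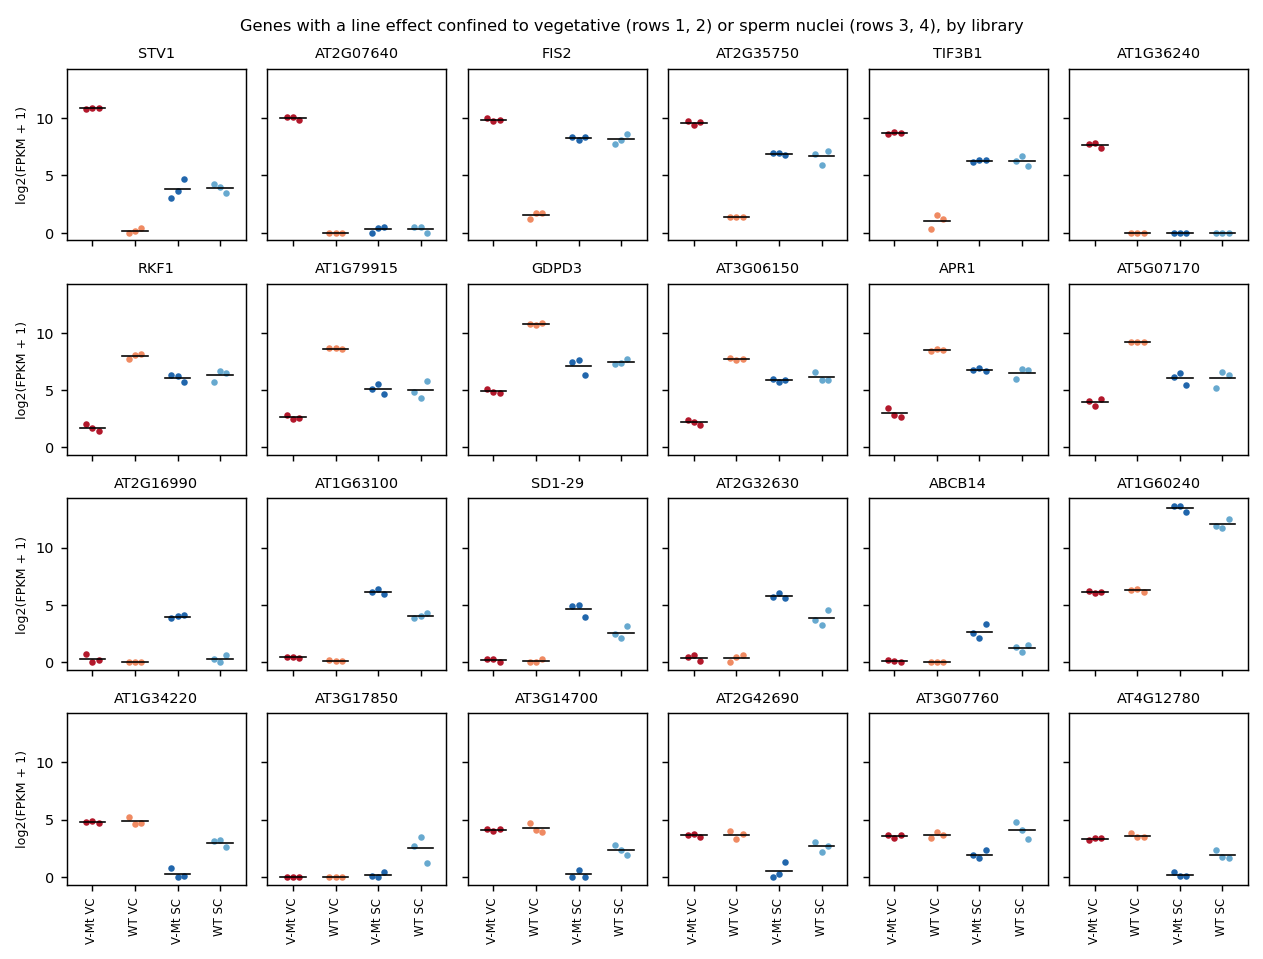
Level in each library, as log2(FPKM + 1), of the named genes whose line effect was confined to vegetative nuclei (upper 2 rows, higher then lower) or to sperm nuclei (lower 2 rows, higher then lower); points are libraries in the order of replicates 1 to 3 and bars are group means. The V-Mt and WT libraries of the other nucleus kind lie close together in each panel, although AT2G16990, ABCB14, AT3G17850, AT2G07640 and AT1G36240 have groups listed at 0.

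Effects confined to SC were few, 14 higher and 31 lower, against 232 and 776 SC effects called in all. The 14 higher genes held the transcription factors AT1G63100 (GRAS) and AT1G60240 (NAC), the coactivator KIWI, the telomere-binding protein TRP1, the fructose bisphosphatase FBP, the expansin EXPA6, the receptor-like kinase SD1-29, the ABC transporter ABCB14 and 6 further entries, of which 1 has no AGI locus. Their VC means were both under 1 FPKM in 8 of the 14. The median over the 14 was 0.495, 0.46 and 0.255 FPKM in V-Mt VC, against 0.095, 0.235 and 0.35 FPKM in WT VC, and 59.6, 73.6 and 70.1 FPKM in V-Mt SC, against 12.9, 11.7 and 20.3 FPKM in WT SC.

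AT2G16990, a major facilitator transporter, stood at 13.01, 15.02 and 16.2 FPKM in V-Mt SC, against 0.20, 0 and 0.54 FPKM in WT SC. It was at 0.66, 0 and 0.14 FPKM in V-Mt VC, against a listed 0 in all WT VC libraries. Among the 12 pollen libraries it was thus above 1 FPKM only in those of V-Mt SC (limma, adjusted p of the difference = 1.18e-05). AT1G60240 (chromosome 1, 22215168 to 22216329, minus strand) was abundant in sperm nuclei, at 12546, 12548 and 8783 FPKM in V-Mt SC, against 3700, 3425 and 5632 FPKM in WT SC. In vegetative nuclei it stood at 71.2, 62.8 and 68.3 FPKM in V-Mt VC, against 76.4, 84.0 and 70.3 FPKM in WT VC. The sperm groups did not overlap and lay far above the vegetative ones. The effect was 1.43 ± 0.21 in SC and -0.19 ± 0.21 in VC (limma, adjusted p = 0.0111 and 0.449), a difference of -1.61 ± 0.30 (adjusted p = 0.000769). AT1G60240 kept the pattern in 18 of 22 refits. It lost the pattern under both other scalings, with library weights and without replicates 1 and 2 of WT SC. The VC effect was called in 2 of the refits and reached -1.27.

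AT1G63100 stood at 69.1, 81.2 and 60.9 FPKM in V-Mt SC, against 13.8, 15.2 and 18.1 FPKM in WT SC, with all VC libraries at or under 0.40 FPKM (difference -1.80 ± 0.37; limma, adjusted p = 0.00153). SD1-29, AT2G32630 and ABCB14 had differences called at adjusted p = 0.00603, 0.00979 and 0.0161 (limma). These 3 calls and that of AT1G63100 were lost with a pseudocount of 0.1, and those of AT2G32630 and ABCB14 also without replicates 1 and 2 of WT SC. The count of 14 became 40 without replicate 3 of WT SC, 8 without its replicate 2 or replicate 1 of WT VC, and 4 or 5 without replicate 2 or 3 of WT VC or any 1 library of V-Mt VC. All 14 kept the call and sign of the difference under both other scalings, while 3 kept the pattern.

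The 31 lower genes were mostly low transcripts, with roles in membrane transport (VPS37-1, YSL6), actin filaments (AFH14), lipid synthesis (PDAT), ubiquitin (UBQ3) and chromatin (CHB3, a SWI3-type subunit of chromatin remodelling complexes). The median over the 31 was 2.36, 2.82 and 3.22 FPKM in V-Mt VC, against 2.72, 2.93 and 2.83 FPKM in WT VC, and 0.28, 0.22 and 0.09 FPKM in V-Mt SC, against 4.93, 3.35 and 2.19 FPKM in WT SC. AT1G34220, a regulator of Vps4 activity in membrane sorting, stood at 26.3, 28.4 and 24.7 FPKM in V-Mt VC, against 36.9, 23.9 and 25.2 FPKM in WT VC, and at 0.69, 0 and 0.05 FPKM in V-Mt SC, against 7.51, 8.22 and 5.04 FPKM in WT SC. The sperm groups were apart and the vegetative groups overlapped (difference 2.60 ± 0.46; limma, adjusted p = 0.000516).

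UBQ3, a polyubiquitin gene and the most abundant of the 31 in WT SC, averaged 493 FPKM in V-Mt VC and 545 FPKM in WT VC, and 165 FPKM in V-Mt SC against 355 FPKM in WT SC (difference 0.93; limma, adjusted p = 0.0289). The count of 31 became 89 without replicate 3 of WT SC and 17, 8 and 6 without replicate 1, 2 or 3 of WT VC, and 9, 5 and 8 without replicate 1, 2 or 3 of V-Mt VC. This pattern depended on scaling: 2 of the 31 kept the call of the difference under both other scalings. The differences of AT1G34220, AT3G14700, AT2G42690, AT3G07760 and AT4G12780 turned negative after quantile normalization, from 2.60, 2.05, 2.08, 2.04 and 1.48 to -0.09, -0.85, -1.30, -1.19 and -2.06.

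**Figure D4:**
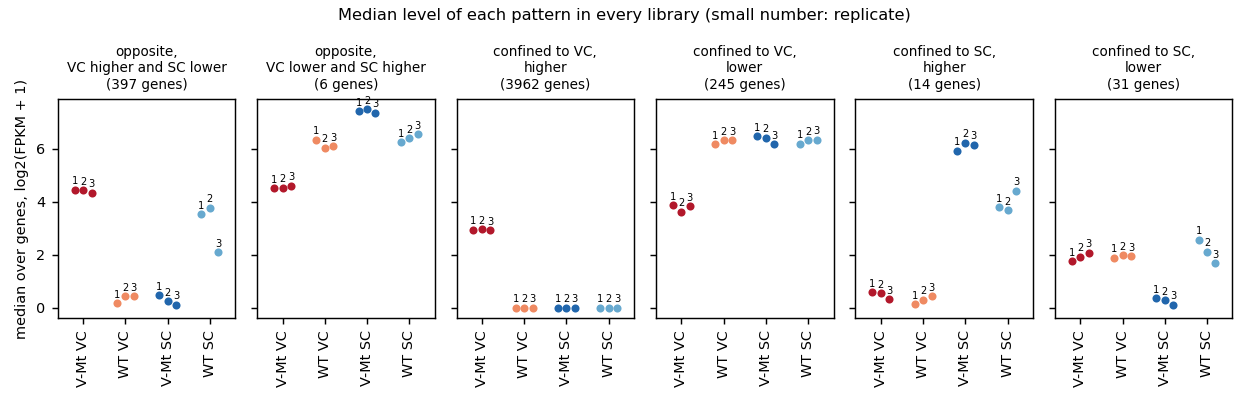
Median level over the genes of each pattern in every library, as log2(FPKM + 1), with the replicate number above each point. Replicate 3 of WT SC lies below replicates 1 and 2 in the 397 genes higher in V-Mt VC and lower in V-Mt SC, and the genes confined to VC and higher have a median of 0 in every library outside V-Mt VC.

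The 5 largest differences of line effect on the higher side, whatever the pattern, belonged to 3 ribosomal protein genes, a histone chaperone and an RNA helicase. AT1G67430 (ribosomal protein L22p/L17e) stood at 1940, 2133 and 2084 FPKM in V-Mt VC, against 0.33, 0.33 and 0.24 FPKM in WT VC, and at 35.4, 16.8 and 50.2 FPKM in V-Mt SC, against 185, 231 and 23.63 FPKM in WT SC (difference 12.29 ± 1.02; limma, adjusted p = 2.35e-06). FKBP53, a nuclear immunophilin that acts as a histone chaperone, stood at 351, 369 and 947 FPKM in V-Mt VC, against 1.31, 0.14 and 0.26 FPKM in WT VC, and at 1.59, 0.36 and 0.47 FPKM in V-Mt SC, against 55.4, 24.7 and 6.82 FPKM in WT SC. FKBP53 was among the opposite genes (difference 12.08 ± 0.97; limma, adjusted p = 1.83e-06), but its SC effect was not called without replicates 1 and 2 of WT SC (-2.18; adjusted p = 0.187), while the sperm groups of AT1G67430 overlapped. UAP56b (an RNA helicase of mRNA export with a near-identical copy), AT5G61170 and RPS15 followed at 11.83, 11.53 and 11.40.

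On the lower side the sperm arm was uneven. ARLA1B, a small GTPase of the ADP-ribosylation factor family, stood at 20.9, 19.0 and 14.4 FPKM in V-Mt VC, against 886, 989 and 1012 FPKM in WT VC, and at 116, 72.5 and 65.0 FPKM in V-Mt SC, against 6.80, 0 and 121 FPKM in WT SC (difference -8.74 ± 1.80; limma, adjusted p = 0.00148). Replicate 3 of WT SC was the high one. AT1G11770, BSK8 and AT1G21695 had the same replicate highest in WT SC, at 55.9, 44.2 and 31.2 FPKM against at most 8.71 FPKM in replicates 1 and 2, and differences of -8.29, -7.94 and -7.75 (limma, adjusted p 0.00067, 0.000762 and 0.000512). Without replicates 1 and 2 of WT SC the differences of ARLA1B, AT1G11770, BSK8 and AT1G21695 were -5.10, -5.27, -5.80 and -4.91, still called. SEC14, a phosphatidylinositol transfer protein gene, had a difference of -7.71 ± 1.07 (limma, adjusted p = 0.000102).

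Pollen tube genes stood out among 16 gene lists, as far as counts show. Of 32 genes of tube growth and signalling 0 had a larger line effect in VC than in SC and 19 a smaller one. Over all tested genes these shares were 60.5% and 7.18%. The median difference was -2.26, against 2.24 over all tested genes. By line effect 28 of the 32 were called lower in VC and 8 in SC, against 10.8% and 3.93% of all tested genes. The calcium-dependent kinase CPK34 averaged 9.07 ± 0.79 FPKM in V-Mt VC and 646 ± 138 FPKM in WT VC, and 38.2 ± 30.6 FPKM in V-Mt SC and 62.8 ± 14.9 FPKM in WT SC (SD, n = 3 each). The receptor-like kinase MRI of cell wall integrity had a difference of -5.25 ± 0.78 and the extensin LRX11 one of -3.94 ± 0.45 (limma, adjusted p = 0.000157 and 2.45e-05). ROP1, the GTPase of tip growth, was the member whose effect was confined to VC. Summed, the list took 0.342% to 0.372% of FPKM in V-Mt VC, against 2.23% to 2.84% in WT VC, and 0.234% to 0.265% in V-Mt SC, against 0.392% to 0.564% in WT SC.

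Genes of the vegetative cell wall, transport and cytoskeleton were split, with 12 of 32 larger and 5 smaller in VC (median 0.29, but 9 and 14 after median-ratio scaling, with a median of -1.07). On the deposited scale these shares were 37.5% and 15.6%, against 60.5% and 7.18% of all tested genes. The glucose transporter SWEET8 averaged 722 ± 91.3 FPKM in V-Mt VC and 1.92 ± 1.49 FPKM in WT VC, but 20.9 ± 12.02 FPKM in V-Mt SC and 31.9 ± 16.9 FPKM in WT SC (SD, n = 3 each), a difference of 8.72 ± 0.79 (limma, adjusted p = 4.26e-06). The monosaccharide carriers STP4 and STP2 had differences of 6.69 ± 1.16 and 5.54 ± 0.79 (limma, adjusted p = 0.000486 and 0.000125). Of 119 genes annotated with pectin, 44 were larger and 23 smaller (37.0% and 19.3%, with a median of 0.94). The larger share was below the 60.5% of all tested genes and the smaller above their 7.18%. Both counts turned to 17 and 40 after quantile normalization (median -0.83). AT5G27870 and AT2G47340, of the invertase and pectin methylesterase inhibitor superfamily, had smaller effects in VC, with differences of -6.81 and -5.99, and QRT1, a pectin methylesterase that separates pollen of a tetrad, had a larger one, with 7.08 (limma, adjusted p 0.000741, 0.000196 and 0.000982). Of 13 pollen transcription factors of the MADS, MYB, WRKY and bZIP classes, 3 were larger, among them AGL94 and WRKY34 with differences of 5.08 and 4.71 (limma, adjusted p 0.000666 and 0.000132), and 3 smaller (median -1.03; 2 and 7 under either other scaling). Larger and smaller shares of these factors were each 23.1%, against 60.5% and 7.18% of all tested genes. The smaller factors were 5 without replicate 2 of V-Mt SC or without replicate 3 of WT SC.

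AGL18, a MADS factor, was the extreme of these factors. It averaged 149 ± 2.72 FPKM in V-Mt VC and 5217 ± 336 FPKM in WT VC, and 675 ± 234 FPKM in V-Mt SC and 562 ± 158 FPKM in WT SC (SD, n = 3 each; difference -5.34 ± 0.39; limma, adjusted p = 8.83e-07). Its effect was confined to VC.

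Sperm cell genes were mixed: 4 of 19 had a larger line effect in VC and 7 a smaller one (median -0.04, but -1.64 after median-ratio scaling and -1.48 after quantile normalization). On the deposited scale these shares were 21.1% and 36.8%, against 60.5% and 7.18% of all tested genes. DAN1, a sperm gene for a nucleic acid binding protein that DUO1 activates, was the member with an effect confined to VC. It stood at 3393, 3390 and 3084 FPKM in V-Mt VC, against 161, 165 and 130 FPKM in WT VC, and at 14618, 14738 and 13026 FPKM in V-Mt SC, against 10012, 10828 and 12486 FPKM in WT SC. Its level in V-Mt VC was thus between WT VC and the sperm groups (difference 4.08 ± 0.18; limma, adjusted p = 2.38e-07). DUO1, the MYB factor of sperm fate, and the tetraspanin TET11 had differences of 4.46 ± 0.67 and 3.07 ± 0.52 (limma, adjusted p = 0.000181 and 0.000392), neither called after quantile normalization (1.84 and 0.55; adjusted p = 0.053 and 0.316). As a whole the sperm list took 0.409% to 0.452% of FPKM in V-Mt VC, against 0.135% to 0.188% in WT VC, and 8.61% to 10.4% in V-Mt SC, against 6.09% to 9.95% in WT SC.

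Polycomb and H3K27 demethylase genes had a larger effect in VC in 13 of 17 and a smaller one in 1 (median 4.14; 7 and 4 after quantile normalization), with 0 called higher and 1 called lower in SC. JMJ30, a demethylase of the clock and heat response, averaged 30.8 ± 8.06 FPKM in V-Mt VC, was listed at 0 in WT VC, and averaged 0.20 ± 0.346 FPKM in V-Mt SC and 7.19 ± 7.16 FPKM in WT SC (SD, n = 3 each; limma, adjusted p = 2.68e-05). Its opposite effects were not called so without replicates 1 and 2 of WT SC (limma, adjusted p of the SC effect 0.345). REF6 and FIS2, described above, were the largest of this list. V-Mt makes REF6 from the transgene in the vegetative cell, so its place among the 13 was set by the construct. Of 25 developmental factors known as Polycomb targets, 19 were larger and 0 smaller (median 2.32, with 6 and 2 after quantile normalization). Of the 25, 10 were confined to VC and higher (40%, against 20.1% of all tested genes). No SC mean of these 10 was above 0.34 FPKM, so the rule had little sperm signal to read.

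KNAT2, a homeobox factor of the meristem, had a larger effect in VC and an uneven sperm arm, and met none of the patterns. It averaged 68.3 ± 12.7 FPKM in V-Mt VC and 0.0433 ± 0.0513 FPKM in WT VC, and 0.06 ± 0.104 FPKM in V-Mt SC and 3.79 ± 3.61 FPKM in WT SC (SD, n = 3 each; difference 7.90 ± 0.73; limma, adjusted p = 4.85e-06). KNAT6, its relative, had a difference of 5.39 ± 1.47 (limma, adjusted p = 0.00773), and MAF4, a repressor of flowering, was called at adjusted p = 0.000334 with a listed 0 in V-Mt SC. The shares of the Polycomb and target lists, 76.5% (with the transgene REF6 counted) and 76%, stood above the 60.5% of all tested genes. After quantile normalization they were 41.2% and 24%, against 27.1%, so that the targets then stood below the background; no test of the lists was made.

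DNA methylation and small RNA genes were larger in 13 of 20 and smaller in 1 (median 2.59; 7 and 3 after quantile normalization). The share of 65% was near the 60.5% of all tested genes, and the median near their 2.24. AGO4, the Argonaute of RNA-directed DNA methylation, averaged 302 ± 11.96 FPKM in V-Mt VC and 0.0333 ± 0.0416 FPKM in WT VC, and 0.693 ± 0.307 FPKM in V-Mt SC and 10.6 ± 9.14 FPKM in WT SC (SD, n = 3 each). Its effects were opposite, with a difference of 10.57 ± 0.83 (limma, adjusted p = 1.5e-06), but the SC effect was -0.79 and not called without replicates 1 and 2 of WT SC (adjusted p = 0.31). The DNA methyltransferase CMT3 and AGO1, the main microRNA Argonaute, had differences of 7.53 ± 1.02 and 7.18 ± 1.44 (limma, adjusted p = 8.44e-05 and 0.00124).

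Histone genes were larger in 27 of 30 (90%, against 60.5% of all tested genes) and smaller in 1. Their median was 5.17, and the counts were 17 and 1 after quantile normalization. HTR6, a histone H3 gene, averaged 200 ± 26.3 FPKM in V-Mt VC and 0.09 ± 0.156 FPKM in WT VC, and 7.61 ± 10.6 FPKM in V-Mt SC and 1.23 ± 1.13 FPKM in WT SC (SD, n = 3 each; difference 6.29 ± 1.17; limma, adjusted p = 0.000758). HTB1 had a difference of 7.85 ± 1.89 (limma, adjusted p = 0.00381), lost without replicates 1 and 2 of WT SC, and HTB9, listed at 0 in WT VC, was called at adjusted p = 0.000288; both encode H2B, which the WT line also carries as a GFP fusion, and histone copies are near identical. In SC 0 of the 30 histone genes were called higher and 7 lower, against 1.18% and 3.93% of all tested genes. Cell cycle and replication genes were larger in 12 of 29 and smaller in 6, with a median of 1.27. These shares were 41.4% and 20.7%, against 60.5% and 7.18% of all tested genes. The smaller ones were 2 or 3 without replicate 2 or 3 of WT VC, replicate 1 or 2 of V-Mt SC, replicate 1 of WT SC or any 1 library of V-Mt VC. Both counts turned to 6 and 7 after median-ratio scaling (median -0.09) and to 1 and 12 after quantile normalization (median -1.33). The replication clamp PCNA2, CYCB1;1 and the F-box protein FBL17 had differences of 4.83, 4.39 and 3.82 (limma, adjusted p 0.00117, 0.00339 and 0.00167), all no longer called after quantile normalization, at 0.97, 1.95 and 0.11 (adjusted p 0.314, 0.111 and 0.912).

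Ribosomal protein genes were larger in 275 of 311 and smaller in 4 (median 5.35, with 193 and 12 after quantile normalization). Proteasome genes were larger in 38 of 43 and smaller in 0 (median 5.77, with 30 and 2 after quantile normalization). The larger share was 88.4% in each list, against 60.5% of all tested genes. RPN1B, a subunit of the proteasome cap, averaged 539 ± 3.53 FPKM in V-Mt VC and 0.537 ± 0.146 FPKM in WT VC, and 2.33 ± 3.09 FPKM in V-Mt SC and 8.63 ± 10.3 FPKM in WT SC (SD, n = 3 each; difference 9.71 ± 1.16; limma, adjusted p = 3.35e-05). The core subunits PAC1 and PBG1 had differences of 9.65 ± 1.60 and 8.54 ± 0.80 (limma, adjusted p = 0.000351 and 5.44e-06). Confined to VC were 31 ribosomal protein and 8 proteasome genes, and opposite were 4 and 3. For ribosomal proteins these shares were 9.97% and 1.29%, against 20.1% and 2.01% of all tested genes, and for the proteasome 18.6% and 6.98%.

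Lists for other tissues and for stress were read beside the same background. Photosynthesis genes were larger in 13 of 18 and smaller in 0 (72.2%, against 60.5% of all tested genes; median 3.13; 3 and 2 after quantile normalization). Their summed share was 0.0185% to 0.0205% of FPKM in V-Mt VC, against 0.00182% to 0.0021% in WT VC, and 0.161% to 0.181% in V-Mt SC, against 0.0672% to 0.103% in WT SC. RBCS1A, the small subunit of Rubisco, and PSBO1 of photosystem II had a listed 0 throughout WT VC and averaged 11.6 ± 1.49 and 29.2 ± 1.94 FPKM in V-Mt VC (SD, n = 3 each; limma, adjusted p of the difference 0.00025 and 0.00019), and LHCB5 of the antenna had a difference of 5.25 ± 0.98 (limma, adjusted p = 0.000767; 2.02 and 0.0885 after quantile normalization). Heat shock genes were larger in 12 of 14 and smaller in 0 (median 4.34; 7 and 0 after quantile normalization), with 6.97 for HSP17.6A, 6.4 for the endoplasmic reticulum chaperone BIP3 and 6.38 for HSP90.1 (limma, adjusted p 7.11e-05, 0.000366 and 3.09e-05). The larger share of heat shock genes was 85.7%, against 60.5% of all tested genes. Summed, heat shock genes took 0.0591% to 0.0653% of FPKM in V-Mt VC, against 0.00736% to 0.00889% in WT VC.

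Tapetum and pollen coat genes were larger in 6 of 13 (46.2%, below the 60.5% of all tested genes) and smaller in 3 (median 1.77; 1 smaller without replicate 2 of V-Mt VC or replicate 1 of V-Mt SC; 0 and 4 after quantile normalization, median -0.24). MS2 and PKSA, enzymes of the pollen wall, had differences of 3.49 ± 0.77 and 3.24 ± 0.64 (limma, adjusted p = 0.00225 and 0.00107; not called after quantile normalization, at 1.04 and 0.44, adjusted p 0.306 and 0.628), and CYP703A2, listed at 0 in WT SC, was called at adjusted p = 0.00292. The list took 0.00782% to 0.00869% of FPKM in V-Mt VC, against 0.0017% to 0.00265% in WT VC, and at most 0.00202% in SC libraries. Of 2 tested egg and central cell genes 0 were called. The part of RNA from other tissues in these values was not tested.

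**Figure D5:**
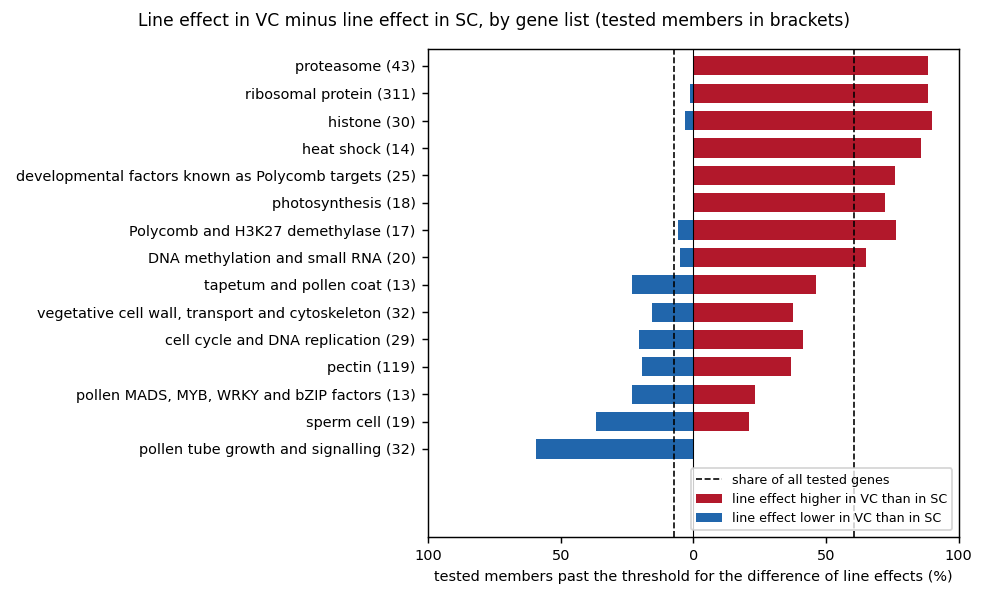
Share of the tested members of each gene list called for the difference of line effects, larger in VC than in SC to the right (red) and smaller to the left (blue); dashed lines mark the shares over all tested genes, 60.5% and 7.18%. Pollen tube genes have 0 larger and 19 of 32 smaller, on the deposited scale; after quantile normalization the lists of sperm cell, pollen factor, cell cycle, pectin and tapetum genes had more members smaller than larger.

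Late microspores, an earlier stage whose table was normalized apart, gave a readout that the patterns had not used. The WT line there carries pHTR10:HTR10-RFP alone. Of the 397 opposite genes 386 (97.2%) were listed, against 82.1% of all tested genes, with medians of 29.4, 26.7 and 27.3 FPKM in V-Mt and 34.1, 30.3 and 27.1 FPKM in WT microspores. Over all tested genes the medians were 14.5, 13.5 and 15.1 FPKM in V-Mt and 16.6, 15.9 and 16.4 FPKM in WT microspores. Of the 3962 genes confined to VC and higher 61.4% were listed, with medians of 6.80, 7.52 and 8.20 FPKM in V-Mt and 10.9, 9.75 and 10.0 FPKM in WT microspores. Entries without an AGI locus made up 1378 of these 3962, 9 of the 397 and 2628 of all 19733 tested. The listed shares were not taken over AGI loci alone, so they do not show presence or absence at this stage. The line effect in microspores was called for 0 of 18002 genes by limma, REF6 included, with 1195 (6.64%) at an unadjusted p under 0.05; among the 375 opposite genes tested there the counts were 0 and 27. REF6 itself stood at 1160, 1175 and 506 FPKM in V-Mt microspores, against 77.7, 108 and 125 FPKM in WT microspores, without overlap (log2 difference 3.11; limma, adjusted p = 0.193). The absence of calls at this stage therefore does not show that the lines were alike there.

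Promoters were searched for the REF6 word, since the lines differ in that protein. The words CTCTGCTC, CTCTGCTT, CTCTGTTC and CTCTGTTT were counted on either strand in the 250 bases before each gene start (RefSeq, TAIR10.1). Any of them was held by 914 of 17036 promoters of tested genes (5.37%), by 25 of 387 opposite genes (6.46%), 112 of 2574 confined to VC and higher (4.35%) and 16 of 227 confined to VC and lower (7.05%). In sperm nuclei 1 of 13 genes confined and higher (7.69%) and 3 of 31 confined and lower (9.68%) held one, and 0 of the 6 reverse opposite genes did. The shares are a description of these windows, with few genes behind some and no test. Of the 38 named genes of these patterns AT1G60240 alone held a word, CTCTGCTT on the strand opposite to the gene, 221 bases before its start. Its window (chr1:22216330-22216579, minus strand) is printed 5′ to 3′ with the word, read on this strand as its reverse complement, in capitals, beside those of EDA12 (chr2:15104466-15104715, plus strand) and FIS2 (chr2:14992315-14992564, plus strand), which held none. EDA12 and FIS2 are shown as examples, on the deposited scale, of opposite effects and of an effect confined to VC with strong sperm signal.
AT1G60240: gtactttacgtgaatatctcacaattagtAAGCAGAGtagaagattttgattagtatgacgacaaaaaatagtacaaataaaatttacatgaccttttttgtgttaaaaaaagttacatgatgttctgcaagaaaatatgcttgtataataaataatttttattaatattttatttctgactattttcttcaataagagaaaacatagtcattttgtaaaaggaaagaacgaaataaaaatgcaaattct
EDA12: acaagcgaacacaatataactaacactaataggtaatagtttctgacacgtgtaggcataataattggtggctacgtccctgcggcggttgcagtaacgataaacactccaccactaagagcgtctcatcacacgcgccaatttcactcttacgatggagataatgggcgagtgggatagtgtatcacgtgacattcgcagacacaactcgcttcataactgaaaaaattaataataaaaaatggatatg
FIS2: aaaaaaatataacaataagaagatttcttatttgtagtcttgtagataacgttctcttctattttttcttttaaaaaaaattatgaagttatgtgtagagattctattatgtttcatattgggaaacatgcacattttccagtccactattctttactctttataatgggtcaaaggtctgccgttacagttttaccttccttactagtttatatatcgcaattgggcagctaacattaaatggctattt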

How the data were processed

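Pollen nuclei and late microspores were profiled by RNA-seq: poly(A) RNA of sorted nuclei was amplified with SMART-Seq, per the labels' protocols. The authors deposited FPKM per gene, for which the submitters' processing notes name RSEM 1.3.1, Bowtie2 2.3.5, StringTie 1.3.5 and HISAT2 2.1.0 and the build TAIR10, with neither role nor order. FPKM in the pollen table cover 28424 entries, of which 3356 carry no AGI locus. Here log2 of the deposited FPKM plus a pseudocount of 1 was fitted with limma 3.58.1 (R 4.3.3; trend, empirical Bayes) over all 12 pollen libraries with 1 mean per group, for genes that reached 1 FPKM in 3 or more of them, 2-sided, with Benjamini-Hochberg adjustment over 19733 genes at 0.05. Line effects in VC and SC and their difference are contrasts of this 1 fit, so that groups share an estimate of the spread. The script was tested on simulated data. Depth was estimated from steps between low FPKM values under an assumed fragment length of 250 bases, so that depth is approximate.

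Named genes have an AGI locus, a group mean of at least 5 FPKM and a called difference. For opposite effects the 8 genes per direction with the largest smaller effect were taken, for confined effects the 6 with the largest effect, and the 5 largest differences per direction, REF6, MGH3 and up to 3 members per list were added. Other members of lists or patterns that the text names were chosen after their values were seen. The members, lists and rules were chosen with earlier results of these data known. Symbols, coordinates and promoters come from RefSeq (TAIR10.1). Alternatives were other scalings, pseudocounts and filters, a replicate block, library weights and leaving out libraries. Genes with a group listed at 0 are given without a fold, and medians over lists and patterns include such genes, whose fitted value depends on the pseudocount.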

Additional observations from a re-analysis of the deposited data

Results flagged for a closer look

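The results here are those whose line effect differed between vegetative and sperm nuclei by a test of the difference itself, the contrast of both line effects in 1 limma fit with Benjamini-Hochberg adjustment at 0.05; 11935 genes had a larger and 1416 a smaller effect in VC. No check for single outlying libraries was made, since groups of 3 are too small for one. Differences below are log2 units, line effect in VC minus line effect in SC; genes with a group listed at 0 are given by their adjusted p. REF6 had a difference of 8.05.

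With opposite effects, higher in VC and lower in SC, differences were 10.62 for EDA12, 8.85 for JAZ8, 8.31 for AT5G07960, 8.71 for TET8, 9.27 for TCH2, 7.80 for PHOS32 and 8.49 for ARK2, and the adjusted p was 4.17e-05 for AGO2. With the reverse they were -4.23 for AT3G18530, -2.82 for AT4G27480, -3.69 for AT5G52882, -2.31 for AT5G04670, -1.81 for AT5G05510 and -2.97 for AT5G54130.

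Effects confined to VC gave 10.83 for STV1, 8.24 for FIS2, 8.04 for AT2G35750 and 7.65 for TIF3B1, with an adjusted p of 2.38e-07 for AT2G07640 and for AT1G36240. On the lower side they gave -5.99 for RKF1, -6.16 for AT1G79915, -5.58 for GDPD3, -5.27 for AT3G06150, -5.78 for APR1 and -5.24 for AT5G07170. Effects confined to SC and higher gave -1.80 for AT1G63100, -1.99 for SD1-29, -1.92 for AT2G32630 and -1.61 for AT1G60240, with an adjusted p of 1.18e-05 for AT2G16990 and 0.0161 for ABCB14. Those confined to SC and lower gave 2.60 for AT1G34220, 2.05 for AT3G14700, 2.08 for AT2G42690, 2.04 for AT3G07760 and 1.48 for AT4G12780, with an adjusted p of 0.00699 for AT3G17850.

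Among the largest differences were 12.29 for AT1G67430, 12.08 for FKBP53, 11.83 for UAP56b, 11.53 for AT5G61170 and 11.40 for RPS15, and on the other side -8.74 for ARLA1B, -8.29 for AT1G11770, -7.94 for BSK8, -7.75 for AT1G21695 and -7.71 for SEC14.

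Pollen tube genes gave -5.25 for MRI, -4.55 for CPK34 and -3.94 for LRX11, transport genes 8.72 for SWEET8, 6.69 for STP4 and 5.54 for STP2, and pectin genes 7.08 for QRT1, -6.81 for AT5G27870 and -5.99 for AT2G47340. Sperm cell genes gave 4.46 for DUO1, 4.08 for DAN1 and 3.07 for TET11, and pollen transcription factors -5.34 for AGL18, 5.08 for AGL94 and 4.71 for WRKY34. JMJ30 had an adjusted p of 2.68e-05, KNAT2 a difference of 7.90, KNAT6 of 5.39 and MAF4 an adjusted p of 0.000334. Cell cycle genes gave 4.83 for PCNA2, 4.39 for CYCB1;1 and 3.82 for FBL17, and small RNA and DNA methylation genes 10.57 for AGO4, 7.53 for CMT3 and 7.18 for AGO1.

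Histone genes gave 7.85 for HTB1 and 6.29 for HTR6, with an adjusted p of 0.000288 for HTB9. Heat shock genes gave 6.97 for HSP17.6A, 6.4 for BIP3 and 6.38 for HSP90.1. In photosynthesis the adjusted p was 0.00025 for RBCS1A and 0.00019 for PSBO1, and the difference 5.25 for LHCB5. Tapetum genes gave 3.49 for MS2 and 3.24 for PKSA, with an adjusted p of 0.00292 for CYP703A2, and proteasome genes 9.71 for RPN1B, 9.65 for PAC1 and 8.54 for PBG1.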

How the results depend on the processing

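Depth is known only as an estimate. Both line effects had a median standard error of 0.472 over all tested genes in the shared fit of 3 libraries per group. Patterns depended on settings far more than the difference itself. Of 90 named genes 89 were called, all but MGH3. For 69 of them call and sign held in every refit. In 18 the call was lost, with the sign kept, under at least 1 of up to 22 refits. The value changed sign in 7 genes, MGH3 among them. AT1G34220 and CYP703A2 lost the call only under quantile normalization, where the sign also changed. The cause was not tested. Median-ratio scaling gave 2655 genes with a smaller effect in VC, 454 higher and 466 lower in SC, 3238 lower in VC, patterns of 230 and 69 (opposite, VC higher and VC lower) and 40 and 19 (confined to SC, higher and lower). Quantile normalization gave 5350 larger and 4063 smaller differences, 6557 higher and 5003 lower in VC, 271 lower in SC, 58 and 25 opposite, 1232 and 617 confined to VC and 26 confined to SC and higher. It turned the difference to -0.094 for AT1G34220, -0.85 for AT3G14700, -1.30 for AT2G42690, -1.19 for AT3G07760, -2.06 for AT4G12780 and -0.24 for CYP703A2 (listed at 0 in WT SC). MGH3, near 0 at -0.04, turned to 0.21 with library weights and to 0.03, 0.05, 0.18 and 0.27 without replicate 2 of V-Mt VC, 3 of V-Mt SC, 1 of WT VC or 3 of WT SC, within a range of -0.23 to 0.27 without any 1 library.

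A pseudocount of 0.1 gave 619 opposite, 1857 confined to VC and higher and 6 and 5 confined to SC. A pseudocount of 5 gave 388 lower in SC, 140 opposite, 420 confined to VC and lower and 37 confined to SC and higher. Without a filter 457 were lower in SC and 217 and 2 opposite, and with a filter at 5 FPKM 2113 were confined to VC and higher and 12 to SC and lower. Bounds of 1.5-fold for a confined effect gave 2294 and 42 in VC and 1 and 3 in SC. Taking the other effect as merely not called gave 10521 and 1202 in VC and 26 and 178 in SC. Library weights gave 15 and 19 called in SC, 13 and 0 opposite, 100 confined to VC and lower and 2 and 3 confined to SC.

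Without replicates 1 and 2 of WT SC, chosen after seeing the data, 49 were higher and 245 lower in SC, 179 and 0 opposite, 153 confined to VC and lower and 6 confined to SC and higher. Leaving out 1 library gave 11204 to 12142 larger and 1213 to 1713 smaller differences, 11524 to 12708 higher and 1857 to 2311 lower in VC, 90 to 625 higher and 232 to 2671 lower in SC. It gave 106 to 1669 and 0 to 81 opposite, 3658 to 4074 and 177 to 300 confined to VC, and 4 to 40 and 5 to 89 confined to SC.

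Replicate numbers are shared between groups, but the 18 pairs of same-numbered libraries correlated at r = -0.201 to 0.145 in their deviations from group means, 2 of them over 0.1, so that numbers were not taken as pairing. With a replicate block 124 were higher and 484 lower in SC, 243 and 1 opposite, and 8 and 17 confined to SC.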

Other observations

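Genes with both line effects of the same sign were counted only where the difference was called, so equal effects were left out by the rule. In each direction the median effect was smaller in sperm nuclei, but the same values had chosen the genes. Over the 99 genes higher in both, the median was 78.0, 74.6 and 73.0 FPKM in V-Mt VC, against 0.05, 0.10 and 0.10 FPKM in WT VC, and 8.65, 9.30 and 28.3 FPKM in V-Mt SC, against 0.55, 0.22 and 0.91 FPKM in WT SC. Over the 70 lower in both, it was 29.8, 26.2 and 24.1 FPKM in V-Mt VC, against 618, 563 and 558 FPKM in WT VC, and 74.9, 68.1 and 69.4 FPKM in V-Mt SC, against 229, 216 and 144 FPKM in WT SC. Replicate 3 of V-Mt SC, the library with the most REF6 among the sperm libraries, had the highest median of the 99 genes; the part of this library in the pattern was not tested.

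Members of the gene lists were found in 3 of the 6 patterns: 15 were opposite with VC higher, 89 confined to VC and higher and 8 confined to VC and lower. Of all tested genes these patterns held 2.01%, 20.1% and 1.24%, and the share over all list members was not computed. The patterns without members held 6, 14 and 31 genes, so few that a lack of members there is no result. The opposite members held PCNA2, which averaged 7.68 ± 2.59 FPKM in V-Mt VC and 1.06 ± 0.15 FPKM in WT VC, and 1.60 ± 1.88 FPKM in V-Mt SC and 18.1 ± 12.04 FPKM in WT SC (SD, n = 3 each). WRKY34, a pollen factor of cold response, averaged 38.5 ± 8.21 FPKM in V-Mt VC and 7.79 ± 1.09 FPKM in WT VC, and 0.0733 ± 0.127 FPKM in V-Mt SC and 6.56 ± 5.51 FPKM in WT SC (SD, n = 3 each). Unlike most opposite genes it was expressed in WT VC. Without replicates 1 and 2 of WT SC the SC effect of WRKY34 stayed called at -2.47 and that of PCNA2, at -1.28, did not (limma, adjusted p 0.0249 and 0.522).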
